A study of Arabidopsis thaliana with 24 samples.

Results

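Sugar transporters of the SWEET family, with the ERD6-like transporter gene SFP1, were followed in Arabidopsis thaliana seedlings through 4 genotypes with and without the auxin indole-3-acetic acid (IAA). The members were all probe sets annotated to exactly 1 gene whose symbol is SFP1 or SWEET with a number, provided that the signal lay above the floor of the table, a log2 value of 5.64, on at least 1 of the 24 arrays. Of 15 probe sets with such a symbol, 6 met this rule, out of 22746 probe sets on the Affymetrix ATH1 array other than controls. They were SFP1 (probe set 246781_at, locus AT5G27350), SWEET1 (260876_at, AT1G21460), SWEET2 (256548_at, AT3G14770), SWEET11 (252327_at, AT3G48740), SWEET16 (258421_at, AT3G16690) and SWEET17 (245524_at, AT4G15920). The members were selected on their measured level, so it is no finding that they were above the floor, and the fall of SFP1 under IAA in the wild type was known when the genes were chosen.

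SWEET proteins are membrane carriers through which sugars move down their own concentration gradient, out of or into a cell or its vacuole. SWEET1 is known as a glucose carrier of the plasma membrane and SWEET11 as a sucrose exporter of the leaf phloem parenchyma, while SWEET2, SWEET16 and SWEET17 sit in the tonoplast, the membrane of the vacuole. SFP1 belongs to another family, the ERD6-like monosaccharide transporters, and has been linked to leaf senescence.

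The seedlings had been grown for 7 days in shaken liquid Murashige and Skoog medium with 1.5% sucrose, under 16 h of light and 8 h of dark, so all groups were fed sugar. They then received 5 µM IAA, or ethanol as control, for 2 h at 24 °C. The genotypes were iaa17-6, axr3-1, the triple mutant iaa5-1 iaa6-1 iaa19-1 and wild-type Columbia (Col), with 3 arrays for each of the 8 combinations of genotype and treatment. IAA5, IAA6, IAA17 and IAA19 encode Aux/IAA proteins, repressors of auxin-responsive transcription that auxin marks for breakdown. The axr3-1 allele is a semi-dominant change in IAA17 that makes this repressor resistant to breakdown, whereas the alleles of iaa17-6 and of the triple mutant are insertions that impair their genes. Col served as the control for every mutant, so comparisons of different mutants with Col share its arrays.

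Arrays of 1 group correlated with each other at a Pearson r of 0.958 to 0.996 over the probe sets tested, and 44.4% to 46.0% of an array's probe sets lay at the floor. In 6 arrays the deviation from the group mean was large along a common axis and had the same sign. These were the third iaa17-6 IAA and iaa17-6 control arrays, the third axr3-1 IAA array, the first IAA and the first control array of the triple mutant, and the third Col control array. Where leaving them out changed a call, that value is given beside the result. The samples were whole seedlings. Of 18 listed markers of photosynthetic tissue and 8 of root, 1 each was annotated and measured: RCA, the Rubisco activase of green tissue, read 11.79 to 12.43, and PYK10, an abundant root glucosidase, 12.20 to 12.69 over the 24 arrays. In RNA from whole seedlings, fewer cells of a type and less RNA per cell cannot be told apart. Of 6 listed root hair markers 3 were annotated, and all 3 (EXPA7, EXPA18 and XTH26) were above the floor on the other 18 arrays but on none of the 6 from axr3-1. Of 5 listed phloem markers none was annotated to a single gene. Of 5 listed markers of seed and reserve mobilisation 1 was annotated, ICL, which encodes isocitrate lyase of the glyoxylate cycle and varied widely. With IAA ICL read 7.14 to 8.41 in iaa17-6, 8.91 to 9.93 in axr3-1, 10.60 to 11.37 in the triple mutant and 6.71 to 8.93 in Col. Without IAA it read 7.79 to 9.01 in iaa17-6, 9.27 to 11.12 in axr3-1, 10.16 to 11.82 in the triple mutant and 6.53 to 8.48 in Col. Its arrays lay above those of Col without overlap in the triple mutant under both treatments and in axr3-1 without IAA, and overlapped in axr3-1 with IAA.

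By level, SWEET11 had the highest readings of the members and SWEET2 the lowest, although readings of different probe sets are not a measure of relative abundance. The other members lay between, at 6.15 to 9.13. SWEET2 was the member nearest the floor: it was above the floor on 16 arrays and its highest value was 6.88. Outside the rule, SWEET3, SWEET4, SWEET6, SWEET7, SWEET8, SWEET9, SWEET10, SWEET13 and SWEET14 stood at the floor on all 24 arrays, as did SWEET5 under its older symbol AtVEX1. SWEET12 has no probe set named here with a single gene. SWEET15 appears in the annotation as SAG29, a senescence-associated gene, and so falls outside the rule by name. It is described after the members.

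**Figure D1:**
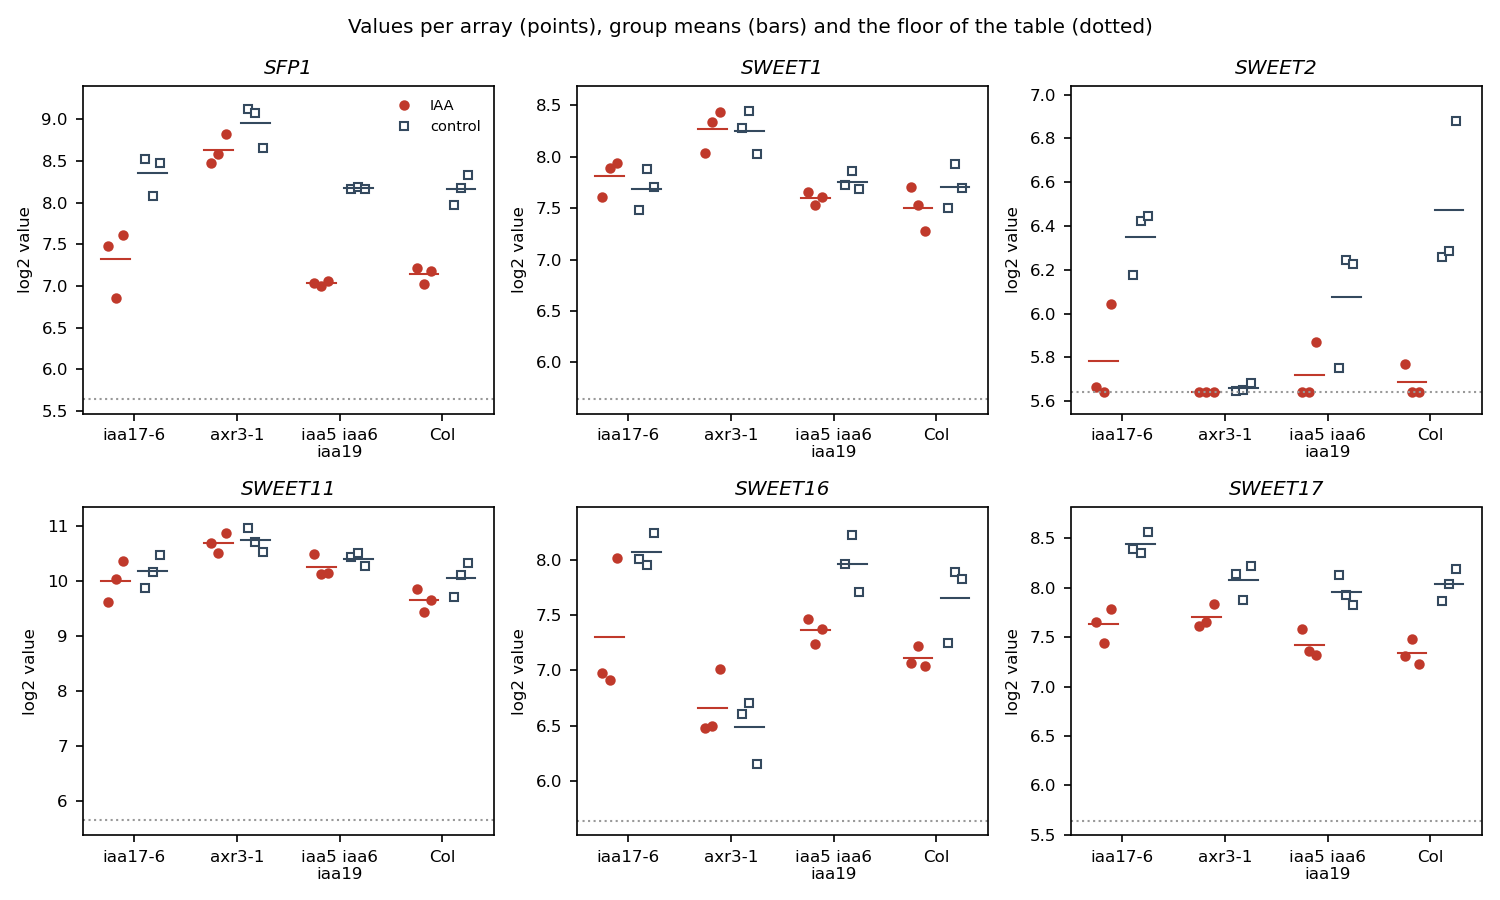
Log2 values (vertical axes) of the 6 members on each of the 24 arrays, by genotype; filled circles are IAA arrays, open squares control arrays, short bars group means and the dotted line the floor at 5.64. SFP1 and SWEET17 lie lower with IAA in iaa17-6, the triple mutant and Col, while in axr3-1 SFP1, SWEET1 and SWEET11 lie above and SWEET16 below the same treatment in Col.

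After 2 h of IAA the signal of SFP1 and SWEET17 was lower in iaa17-6, the triple mutant and Col, and that of SWEET2 in iaa17-6 and Col. A call means an adjusted p under 0.05 in a limma fit of all 14192 probe sets above the floor on at least 1 array. In iaa17-6 3 of the 6 members were lower (SFP1, SWEET2 and SWEET17), against 3.31% of all tested probe sets called lower. In axr3-1 0 of the 6 were called lower, against 0.613%; 1 member, SWEET17, had an unadjusted p under 0.05, as had 1550 probe sets. In the triple mutant 2 members were lower (SFP1 and SWEET17), against 3.59%. In Col SWEET2 and SWEET17 were lower, against 3.18%. SFP1 was lower there too, but its fall was known beforehand and is not counted. The counts in iaa17-6 and the triple mutant do include SFP1, which responded there much as in Col. These counts are therefore not independent of the choice of SFP1. The median log2 difference of the 6 members, IAA minus control, was -0.67 in iaa17-6, -0.03 in axr3-1, -0.45 in the triple mutant and -0.62 in Col, while the median of all probe sets lay between -0.01 and 0.00. Every median of the members includes SFP1, which was chosen with its fall in Col known. No member was called higher with IAA in any genotype, against 4.41% of all probe sets in iaa17-6, 1.79% in axr3-1, 3.68% in the triple mutant and 3.85% in Col.

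**Figure D2:**
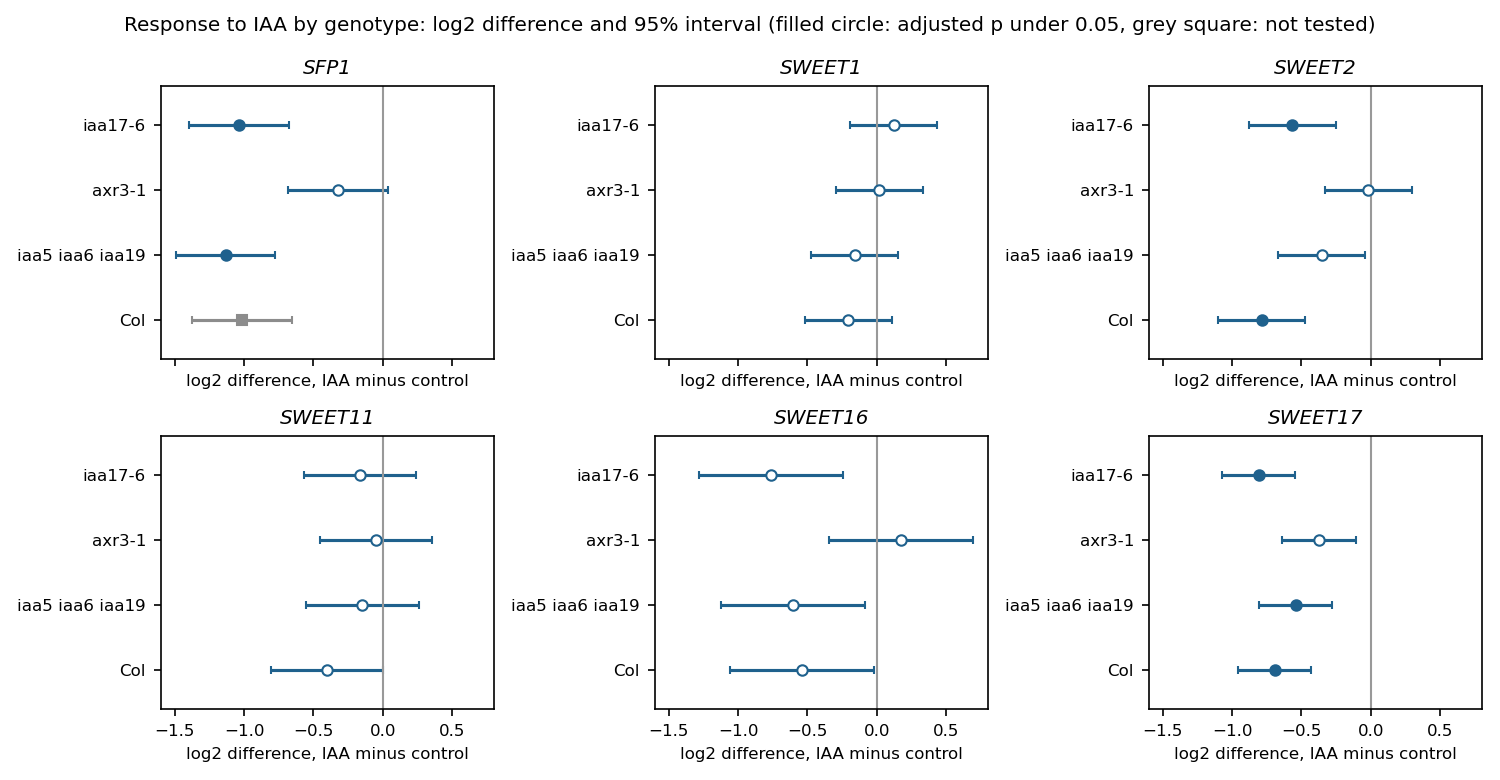
Log2 difference between IAA and control arrays (horizontal axes) for each member and genotype, with the 95% confidence interval of the fit; filled circles have an adjusted p under 0.05, and the grey square marks SFP1 in Col, which is given as a description. SFP1 lies between -1.13 and -1.02 in the genotypes other than axr3-1 and at -0.32 in axr3-1.

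SFP1 had the largest differences with IAA of the 6 members in iaa17-6, the triple mutant and Col. In iaa17-6 SFP1 read 7.49, 6.86 and 7.61 on the IAA arrays, against 8.52, 8.08 and 8.47 on the control arrays. In axr3-1 it read 8.48, 8.59 and 8.82 with IAA, against 9.13, 9.08 and 8.65 without. Triple-mutant seedlings read 7.04, 7.01 and 7.06 with IAA, against 8.16, 8.19 and 8.16 without. The IAA arrays lay below the control arrays without overlap in iaa17-6 and the triple mutant, and the arrays of the triple mutant were closer together than in any other group (SD 0.029 with IAA and 0.013 without). In axr3-1 both treatments were high and overlapped. In Col SFP1 read 7.22, 7.03 and 7.18 with IAA, against 7.97, 8.18 and 8.34 without, again without overlap.

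The fall of SFP1 was 1.04 ± 0.17 on the log2 scale in iaa17-6 (2.05-fold, SE, n = 3 arrays a group, adjusted p = 0.000347). In the triple mutant SFP1 fell by 1.13 ± 0.17 (2.20-fold, adjusted p = 0.000132). These differences are close to the one in Col, -1.02 ± 0.17 (2.02-fold), which is a description. SFP1 was chosen with that Col fall known, so the p-values in iaa17-6 and the triple mutant are not independent of the choice. In axr3-1 the difference was -0.32, with a 95% interval of -0.68 to 0.04 (adjusted p = 0.509). Set against Col, the response of axr3-1 differed by 0.69 ± 0.24, with a 95% interval whose lower limit was 0.18, but this difference of responses did not pass adjustment over all probe sets (unadjusted p = 0.0102, adjusted p = 0.269). For iaa17-6 the same difference of responses was -0.02 (95% interval -0.53 to 0.48), and for the triple mutant -0.12 (95% interval -0.63 to 0.39). The fall in Col enters each of these differences of responses and was known when SFP1 was chosen. They are therefore descriptions, and their p-values are no independent support. The response of iaa17-6 was lost only when the fit was restricted to its own 6 arrays (adjusted p = 0.142).

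SFP1 was also the member with the largest excess in axr3-1 over Col. With IAA it averaged 8.63 ± 0.17 in axr3-1 and 7.14 ± 0.10 in Col (SD, n = 3 each), a difference of 1.48 ± 0.17 or 2.80-fold (SE, adjusted p = 6.64e-06). Without IAA it averaged 8.95 ± 0.26 in axr3-1 and 8.16 ± 0.19 in Col, a difference of 0.79 or 1.73-fold (adjusted p = 0.00426). The Col arrays of both comparisons are those of the fall known when SFP1 was chosen. These p-values are thus not independent of that choice. Even with IAA the axr3-1 arrays, at 8.48 to 8.82, lay above all 3 Col control arrays. In the fit of the 6 arrays alone the control difference missed the threshold (adjusted p = 0.0862). The levels of iaa17-6 and the triple mutant were not called different from Col under either treatment, with differences between -0.11 and 0.20. Ordered by group mean, the 8 groups run from 7.04 in the triple mutant with IAA to 8.95 in axr3-1 controls. Of the 7 neighbouring pairs in that order only 1 did not overlap, the step between the IAA groups of genotypes other than axr3-1 and the remaining 5 groups.

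SWEET17, a fructose carrier of the tonoplast, fell with IAA in iaa17-6, the triple mutant and Col. In iaa17-6 SWEET17 read 7.66, 7.45 and 7.79 with IAA, against 8.39, 8.36 and 8.57 without. In axr3-1 it read 7.62, 7.65 and 7.84 with IAA, against 8.14, 7.87 and 8.22 without. Triple-mutant seedlings read 7.58, 7.36 and 7.32 with IAA, against 8.13, 7.92 and 7.83 without. In all 4 genotypes, axr3-1 included, the IAA arrays lay below the control arrays without overlap. The Col arrays read 7.31, 7.48 and 7.23 with IAA, against 7.87, 8.04 and 8.19 without.

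The differences of SWEET17 were called in iaa17-6 at -0.81 ± 0.13 (1.75-fold, adjusted p = 0.000195), in the triple mutant at -0.54 ± 0.13 (1.46-fold, adjusted p = 0.00877) and in Col at -0.69 ± 0.13 (1.62-fold, adjusted p = 0.00103). The difference in axr3-1 was -0.37, with an interval of -0.64 to -0.11 (adjusted p = 0.185), and it passed the threshold with array weights (-0.44, adjusted p = 0.0213) or with the 6 arrays that stand apart as a term (-0.45, adjusted p = 0.00722). The response of axr3-1 and that of Col differed by 0.32 ± 0.18 (adjusted p = 0.641), so a weaker response of SWEET17 in axr3-1 was not shown. For the triple mutant the call was lost in the fit of its own arrays (adjusted p = 0.0865), without its first control array (-0.46, adjusted p = 0.0587) and without the third of its IAA arrays (-0.49, adjusted p = 0.0523).

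SWEET17, like SWEET16, had its highest group mean in iaa17-6 controls, at 8.44 ± 0.11, against 8.03 ± 0.16 in Col controls (SD, n = 3 each). The iaa17-6 control arrays lay above every array of all other groups, but the difference of 0.41 ± 0.13 from Col missed the threshold (adjusted p = 0.252) and passed it only with the 6 arrays that stand apart as a term (adjusted p = 0.0419). Between axr3-1 and Col SWEET17 differed by 0.36 with IAA (adjusted p = 0.0973) and by 0.04 without (95% interval -0.22 to 0.31).

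SWEET2, a tonoplast carrier known from roots, was near the floor in every group treated with IAA. In iaa17-6 SWEET2 read 5.67, 5.64 and 6.04 with IAA, against 6.17, 6.43 and 6.45 without. In axr3-1 it was at the floor on all 3 IAA arrays, against 5.65, 5.65 and 5.68 on the control arrays. Triple-mutant seedlings read 5.64, 5.64 and 5.87 with IAA, against 5.75, 6.24 and 6.23 without. By group mean the controls were thus the higher ones, although in the triple mutant the first control array read below the third IAA array. In axr3-1 the control arrays read at most 5.68, barely above the floor. The Col arrays read 5.77, 5.64 and 5.64 with IAA, against 6.26, 6.28 and 6.88 without, with no overlap.

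The fall of SWEET2 with IAA was called in iaa17-6 (-0.56 ± 0.15, 1.48-fold, adjusted p = 0.0217) and in Col (-0.79 ± 0.15, 1.73-fold, adjusted p = 0.00153). Since the floor cuts off the IAA values, the sizes understate any larger fall. In the triple mutant the difference was -0.35 (adjusted p = 0.227), and there the first control array, one of the 6 that stand apart, overlapped with the IAA arrays. Without that array the difference was -0.52 (adjusted p = 0.0446), and without all 6 it was -0.48 (adjusted p = 0.00259). With array weights, which keep every array, it was -0.43 and also called (adjusted p = 0.00526). In iaa17-6 the call was lost when any of 4 arrays was left out, the second or the third control array or the first or second IAA array, with differences of -0.53 to -0.49 and adjusted p of 0.0783 to 0.0934. Raising the floor by 1 left a difference of -0.08 in Col (adjusted p = 0.452). Only the third Col control array, at 6.88, then stood above the floor, so this loss says little about the fall. In fits of a genotype's own 6 arrays the adjusted p was 0.156 for iaa17-6 and 0.106 for Col.

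In axr3-1 the response of SWEET2 to IAA has no size, because nearly all of its signal was already at the floor without IAA. Without IAA SWEET2 averaged 5.66 ± 0.021 in axr3-1 and 6.47 ± 0.35 in Col (SD, n = 3 each), a difference of -0.81 ± 0.15 (adjusted p = 0.00108), whose size the floor limits. This call was lost with the floor raised by 1 (-0.08, adjusted p = 0.345) and in the fit of the 6 arrays alone (adjusted p = 0.093). Only the third Col control array stood above the raised floor, so the first of these losses says little about the difference. The 3 annotated root hair markers were at the floor on the same axr3-1 arrays, and their part in this difference was not tested. The response of axr3-1 minus that of Col was 0.77 ± 0.21 (adjusted p = 0.0881), a value that rests on the floor on the axr3-1 side. It was called with array weights (0.67, adjusted p = 0.0469), with the replicate number as a block over all arrays (0.77, adjusted p = 0.0311) and without the 6 arrays that stand apart (0.57, adjusted p = 0.0165).

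SWEET16, which moves hexoses and sucrose across the tonoplast, showed its widest contrast between axr3-1 and the other genotypes. In iaa17-6 SWEET16 read 6.98, 6.91 and 8.01 with IAA, against 8.00, 7.95 and 8.24 without. In axr3-1 it read 6.48, 6.50 and 7.02 with IAA, against 6.61, 6.71 and 6.15 without. Triple-mutant seedlings read 7.47, 7.24 and 7.38 with IAA, against 7.96, 8.22 and 7.71 without. The third iaa17-6 IAA array, at the level of the controls, stood apart from the other IAA arrays of that genotype, and the axr3-1 arrays of both treatments were low and overlapped. The Col arrays read 7.06, 7.22 and 7.04 with IAA, against 7.25, 7.89 and 7.82 without, with no overlap.

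No response of SWEET16 to IAA passed the threshold. The differences were -0.77 ± 0.25 in iaa17-6 (adjusted p = 0.0706), 0.17 ± 0.25 in axr3-1 (adjusted p = 0.843), -0.60 ± 0.25 in the triple mutant (adjusted p = 0.213) and -0.54 ± 0.25 in Col (adjusted p = 0.286). The value in iaa17-6 depended on the third IAA array: without it the difference was -1.12 (adjusted p = 0.00201). Same-numbered arrays of iaa17-6 deviated together, and with the replicate number as a block the difference of -0.77 was called (adjusted p = 0.0294); it was also called without the 6 arrays that stand apart (-1.03, adjusted p = 0.0154). That in the triple mutant was called with array weights (-0.64, adjusted p = 0.0117).

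Without IAA SWEET16 was 2.24-fold lower in axr3-1 than in Col, at 6.49 ± 0.30 in axr3-1 and 7.65 ± 0.35 in Col (SD, n = 3 each; log2 difference -1.16 ± 0.25, SE, adjusted p = 0.00381). With IAA it averaged 6.66 ± 0.31 in axr3-1 and 7.11 ± 0.10 in Col, and the difference of -0.45 was not called (95% interval -0.97 to 0.07, adjusted p = 0.385). All 6 axr3-1 arrays fell at or below 7.02 and the other 18 lay at 6.91 or above. The responses of axr3-1 and Col differed by 0.72 ± 0.35 (adjusted p = 0.573). The control difference missed the threshold in the fit of the 6 arrays alone (adjusted p = 0.0855).

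SWEET11 and SWEET1, both of the plasma membrane, had in common a higher level in axr3-1 under both treatments and no called response to IAA. In iaa17-6 SWEET11 read 9.61, 10.04 and 10.35 with IAA, against 9.87, 10.16 and 10.47 without. In axr3-1 it read 10.68, 10.51 and 10.86 with IAA, against 10.96, 10.70 and 10.53 without. Triple-mutant seedlings read 10.48, 10.13 and 10.14 with IAA, against 10.42, 10.50 and 10.26 without. The axr3-1 arrays were the 6 highest of the 24, and IAA and control arrays overlapped in each genotype. The Col arrays read 9.84, 9.44 and 9.65 with IAA, against 9.71, 10.11 and 10.32 without.

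With IAA SWEET11 was 2.05-fold higher in axr3-1 than in Col, at 10.68 ± 0.18 in axr3-1 and 9.64 ± 0.20 in Col (SD, n = 3 each; log2 difference 1.04 ± 0.19, SE, adjusted p = 0.00134). Without IAA it averaged 10.73 ± 0.22 in axr3-1 and 10.05 ± 0.31 in Col, a difference of 0.68 ± 0.19 (1.61-fold, adjusted p = 0.0297). The control difference was lost in several settings: with no filter on low values (adjusted p = 0.0622), with the floor raised by 1 (0.0525), in the fit of the 6 arrays alone (0.169) and without any of 4 arrays, the first or second Col control or axr3-1 control array (0.51 to 0.71, adjusted p 0.0553 to 0.169). The difference with IAA held its call in every setting run. The responses to IAA were -0.17 in iaa17-6, -0.05 in axr3-1, -0.15 in the triple mutant and -0.40 in Col, where the interval was -0.81 to 0.00. The triple mutant with IAA lay 0.61 ± 0.19 above Col with IAA without overlap, a difference that was not called (adjusted p = 0.389) except with array weights (adjusted p = 0.0166).

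SWEET1, the glucose carrier, overlapped between treatments in iaa17-6, axr3-1 and Col. In iaa17-6 SWEET1 read 7.61, 7.89 and 7.94 with IAA, against 7.48, 7.88 and 7.71 without. In axr3-1 it read 8.03, 8.34 and 8.43 with IAA, against 8.28, 8.45 and 8.02 without. Triple-mutant seedlings read 7.66, 7.53 and 7.61 with IAA, against 7.72, 7.87 and 7.69 without. As with SWEET11, all 6 axr3-1 arrays lay above all other arrays. The Col arrays read 7.71, 7.53 and 7.28 with IAA, against 7.50, 7.93 and 7.69 without.

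SWEET1 averaged 8.27 ± 0.21 in axr3-1 and 7.51 ± 0.21 in Col with IAA (SD, n = 3 each), a difference of 0.76 ± 0.15 (1.70-fold, SE, adjusted p = 0.00217). Without IAA it averaged 8.25 ± 0.21 in axr3-1 and 7.71 ± 0.22 in Col, a difference of 0.54 ± 0.15 (1.46-fold, adjusted p = 0.0259). This second call was lost in the fit of the 6 arrays alone (adjusted p = 0.185), without the 6 arrays that stand apart (0.53, adjusted p = 0.124), and without the first or the third Col control array or the first or second axr3-1 control array (0.44 to 0.53, adjusted p 0.0789 to 0.137). The call with IAA was lost in the fit of the 6 arrays alone (adjusted p = 0.0744). The responses of SWEET1 to IAA lay between 0.12 in iaa17-6 and -0.20 in Col, with intervals that all reached past 0.

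Set against Col, the members thus split by direction in axr3-1. Without IAA 3 members were higher (SFP1, SWEET1 and SWEET11) and 2 lower (SWEET2 and SWEET16), against 4.65% of all tested probe sets called higher and 4.4% called lower. With IAA the same 3 members were higher and 0 lower, against 4.22% called higher and 3.49% called lower. Both counts include SFP1, which was chosen with its fall in Col known. The members' median difference was 0.56 with IAA and 0.29 without, beside a median of 0.00 for all probe sets in both. The root hair markers, and without IAA the level of ICL, also set axr3-1 apart from Col. With IAA the ICL arrays of axr3-1 and Col overlapped, and ICL lay above Col in the triple mutant under both treatments. The part of these markers in the members' differences was not tested. In iaa17-6 against Col 0 members were called with IAA (0.106% of all probe sets) or without (0.197%). At an unadjusted p under 0.05 it was 1 member in each, SWEET17, beside 1288 of the 14192 probe sets with IAA and 1271 without. In the triple mutant against Col 0 members were called with IAA (0.148% of all probe sets) or without (0.176%). At an unadjusted p under 0.05 it was SWEET11 with IAA, beside 1022 probe sets, and SWEET2 without, beside 1083. Single members at this threshold are not read as a result. The intervals of the uncalled differences of iaa17-6 and the triple mutant from Col still allow shifts of up to 1.01 in size for single members.

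**Figure D3:**
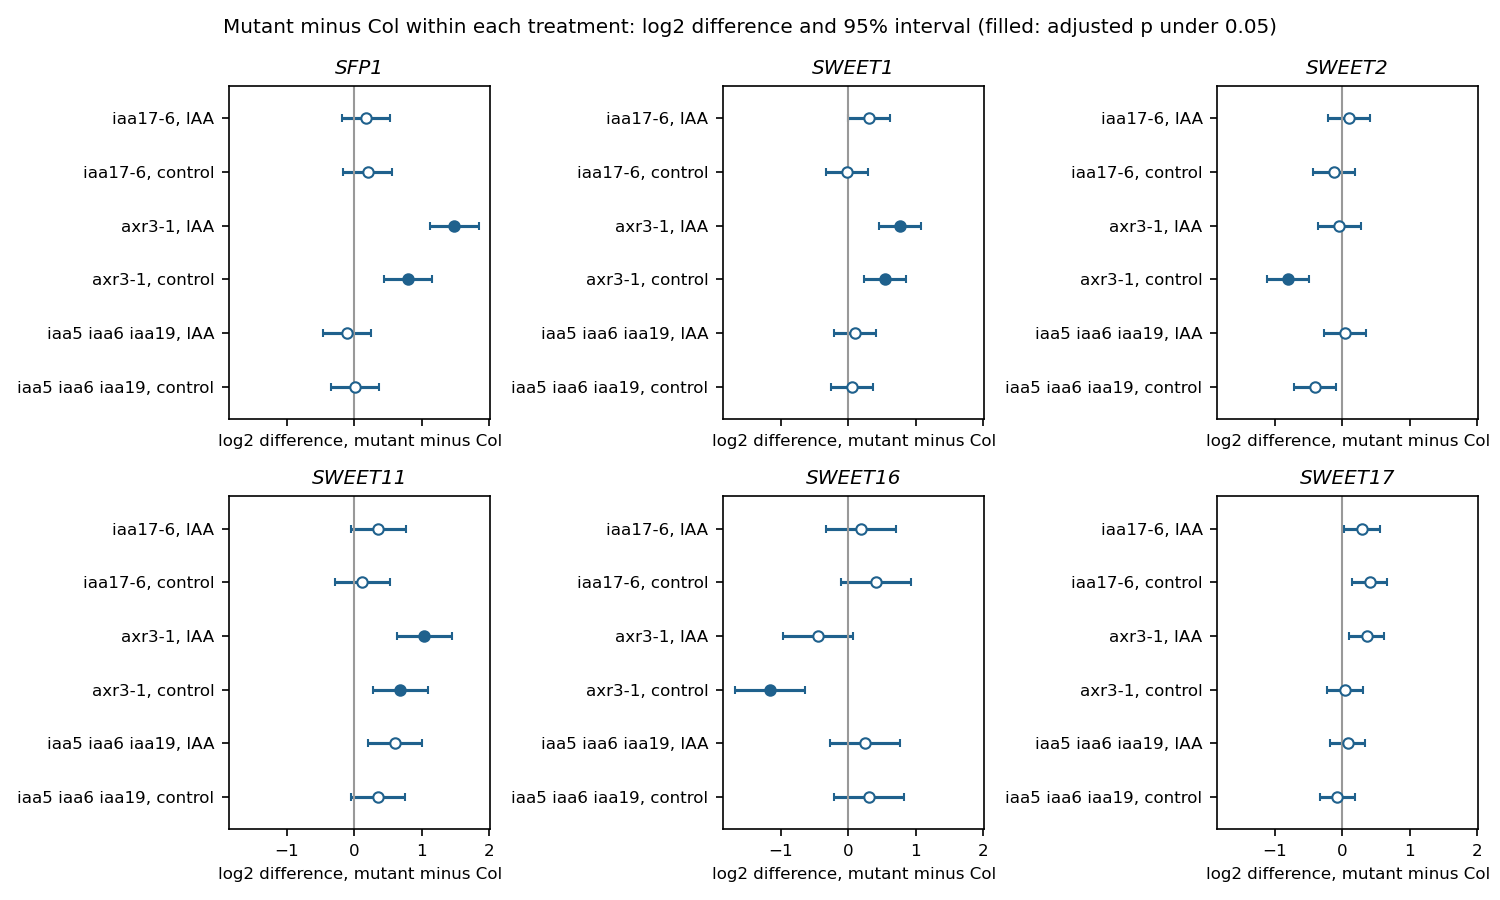
Log2 difference between each mutant and Col (horizontal axes) under IAA and under control treatment, with the 95% confidence interval; filled symbols have an adjusted p under 0.05. Filled symbols occur only in the axr3-1 rows, to the right of 0 for SFP1, SWEET1 and SWEET11 and to the left, without IAA only, for SWEET2 and SWEET16.

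Whether a mutant responded to IAA otherwise than Col was tested as the difference of the responses, and 0 of the 6 members passed in any mutant. For axr3-1 1.62% of all probe sets passed. There 2 members had an unadjusted p under 0.05, SFP1 and SWEET2, as had 1283 of the 14192 probe sets. SFP1 was chosen with its fall in Col known. For iaa17-6 0.0282% and for the triple mutant 0.0352% of all probe sets passed. In both, 0 members had an unadjusted p under 0.05, beside 305 probe sets for iaa17-6 and 205 for the triple mutant. All 6 axr3-1 differences were positive, between 0.22 for SWEET1 and 0.77 for SWEET2, and they share the same axr3-1 and Col arrays. SWEET2 could hardly fall in axr3-1, where it was near the floor without IAA. The share of positive differences over all probe sets was not counted, so the common sign is not read as a result.

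SAG29, known also as SWEET15 and as a sucrose carrier that rises in senescing leaves, was above the floor only on the 6 axr3-1 arrays. It read 5.84, 5.96 and 6.07 in axr3-1 with IAA and 6.36, 5.93 and 5.71 in axr3-1 without, and stood at the floor on the other 18 arrays. SAG29 therefore entered the fit only through axr3-1, the genotype where it was high. Arrays at the floor show no spread, which lowers the error that the fit assigns. The p-values that follow describe the fit and are no independent support for a difference. Without IAA axr3-1 exceeded Col by at least 0.36 ± 0.10 on the log2 scale (adjusted p = 0.0226), and with IAA by at least 0.31 (adjusted p = 0.0574), which passed with quantile normalization (adjusted p = 0.0418), with median centring (adjusted p = 0.0381) and without the first axr3-1 IAA array (adjusted p = 0.0451). Without the first axr3-1 control array the control value was 0.18 and no longer called (adjusted p = 0.066), as did leaving out any Col control array (adjusted p 0.0559 to 0.0687), leaving out the 6 arrays that stand apart (adjusted p = 0.133) or fitting the 6 arrays alone (adjusted p = 0.385).

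Other genes of sugar transport and sucrose cleavage came from a list of 55 symbols, of which 5 were annotated to a single gene and 4 were measured: SFP2, TMT1, TMT2 and cwINV6. TMT3 was at the floor on all arrays. With IAA 1 of the 4 was higher and 2 lower in iaa17-6, against 4.41% and 3.31% of all probe sets. In axr3-1 it was 0 higher and 1 lower, against 1.79% and 0.613%. The triple mutant had 0 higher and 2 lower, against 3.68% and 3.59%, and Col 1 higher and 1 lower, against 3.85% and 3.18%. SFP2 was the lower gene common to all. Among the differences from Col and the differences of responses, 1 was called, SFP2 in axr3-1 controls (4.65% of all probe sets were called higher there). In the same comparison cwINV6 was called with array weights (0.51, adjusted p = 0.0101) and without the second axr3-1 control array (0.65, adjusted p = 0.0137), and TMT1 with the 6 arrays that stand apart as a term (-0.44, adjusted p = 0.0295).

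SFP2 encodes a transporter close to SFP1 in sequence, and its locus tag, AT5G27360, directly follows that of SFP1; how far each probe set also binds the other transcript was not tested. SFP2 averaged 6.19 ± 0.050 in iaa17-6 with IAA and 6.66 ± 0.21 without (SD, n = 3 each; log2 difference -0.47, adjusted p = 0.037). In axr3-1 it averaged 6.51 ± 0.24 with IAA and 7.21 ± 0.19 without (-0.70, adjusted p = 0.00541). In the triple mutant it averaged 5.79 ± 0.13 with IAA, where the first array was at the floor, and 6.45 ± 0.095 without (-0.66, adjusted p = 0.00308). SFP2 therefore fell in axr3-1, where the response of SFP1 was not called. The response of SFP2 in axr3-1 and that in Col differed by -0.17 (adjusted p = 0.801). With the floor raised by 1 the responses differed by -0.49 (adjusted p = 0.0204). That setting cut the fall in Col to -0.03, so its call comes from the raised floor and shows no stronger response in axr3-1. In Col SFP2 averaged 6.09 ± 0.19 with IAA and 6.62 ± 0.11 without (-0.54, adjusted p = 0.0167). Without IAA SFP2 was higher in axr3-1 than in Col by 0.59 (adjusted p = 0.00752). That call was lost without the first axr3-1 control array (0.48, adjusted p = 0.0564), without the 6 arrays that stand apart (0.52, adjusted p = 0.0767) and in the fit of the 6 arrays alone (adjusted p = 0.102). With IAA SFP2 differed by 0.42 (adjusted p = 0.0665), and the difference passed without the first Col IAA array (0.53, adjusted p = 0.0385), without the first axr3-1 IAA array (0.51, adjusted p = 0.0442) and with the 6 arrays that stand apart as a term (0.47, adjusted p = 0.0206).

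The falls of SFP2 with IAA were called in all 4 genotypes but not in every setting. Those in iaa17-6, axr3-1 and the triple mutant lost their calls without the 6 arrays that stand apart (adjusted p 0.0626 to 0.14). In fits of a genotype's own arrays those in iaa17-6, axr3-1 and Col were lost (adjusted p 0.092 to 0.266). Raising the floor by 1 left -0.09 in iaa17-6 (adjusted p = 0.881) and -0.03 in Col, neither called. All IAA arrays of both genotypes then lay at the raised floor, which cut off most of either fall. In iaa17-6 the call also needed the filter on low values (adjusted p = 0.0705 with none). The call in iaa17-6 was further lost without its first control array or any of its IAA arrays (adjusted p 0.0671 to 0.215), and that in Col without its first or second control or the second or the third of its IAA arrays (adjusted p 0.0642 to 0.099).

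TMT1, a carrier that loads monosaccharides into the vacuole, fell with IAA in iaa17-6 and the triple mutant. It averaged 8.07 ± 0.18 with IAA and 8.73 ± 0.15 without in iaa17-6 (-0.66, adjusted p = 0.00444), and 8.39 ± 0.20 with IAA and 8.92 ± 0.26 without in the triple mutant (-0.53, adjusted p = 0.0261). The triple mutant's call was lost without the second or the third of its control arrays or its first or second IAA array (adjusted p 0.0517 to 0.148). In fits of a genotype's own arrays both calls were lost (adjusted p = 0.0885 in iaa17-6 and 0.217 in the triple mutant). In axr3-1 the difference was -0.25 (adjusted p = 0.543) and in Col -0.44 (adjusted p = 0.0752), a value that was called in 4 of the settings run, quantile normalization among them (adjusted p = 0.0405). Its relative TMT2 was not called in any genotype, with differences of -0.54 to -0.18, although the one in Col passed with the 6 arrays that stand apart as a term (-0.47, adjusted p = 0.0363).

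The cwINV6 gene, a relative of the cell wall invertases whose product is known to cleave fructans, was the exception that rose. In iaa17-6 it read 6.49, 6.37 and 6.31 with IAA and was at the floor on the control arrays, a rise of at least 0.75 (adjusted p = 0.00653). In Col it read 6.23, 6.11 and 6.28 with IAA and was at the floor on the control arrays, a rise of at least 0.56 (adjusted p = 0.0487) that was lost when any single Col array was left out (adjusted p 0.0819 to 0.152), and also with no filter on low values (0.103), with the replicate block over all arrays (0.0561), without the 6 arrays that stand apart (0.0901) and with them as a term (0.0588). In the triple mutant the control arrays and the first IAA array were at the floor, and the difference was 0.46 (adjusted p = 0.131); it was called without that IAA array (0.69, adjusted p = 0.00577) and with array weights (0.67, adjusted p = 0.000133). In axr3-1, where the control arrays were above the floor already, it was 0.25 (adjusted p = 0.596). Control arrays of the other genotypes, all at the floor, show no spread, which lowers the error that the fit assigns. The p-values of cwINV6 therefore describe the fit and are no independent support.

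**Figure D4:**
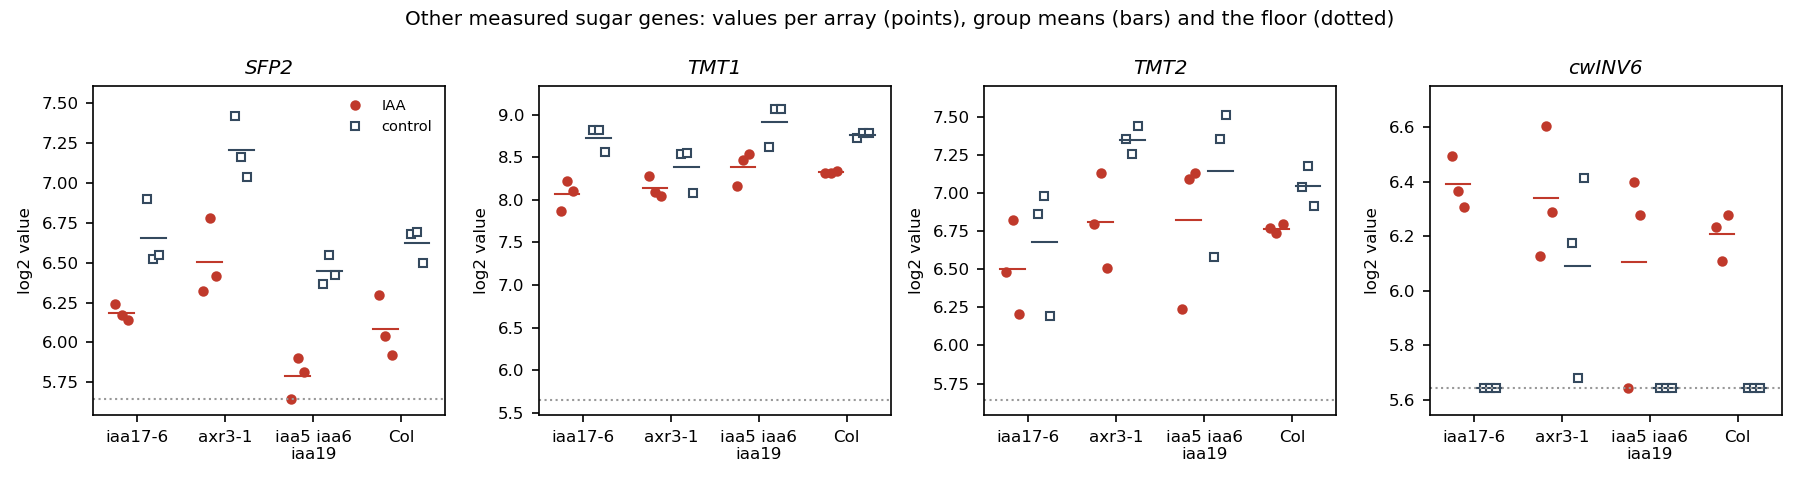
Log2 values (vertical axes) of SFP2, TMT1, TMT2 and cwINV6 on each array, by genotype; filled circles are IAA arrays, open squares control arrays, bars group means and the dotted line the floor. SFP2 lies lower with IAA in all 4 genotypes. With IAA cwINV6 leaves the floor on all arrays of iaa17-6 and Col and on 2 of 3 arrays of the triple mutant.

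Across the 24 arrays the members formed no single pattern. The pairwise Pearson r was highest for SWEET1 with SWEET11 (0.78), SWEET2 with SWEET16 (0.72) and SFP1 with SWEET17 (0.71). It was lowest for SWEET1 with SWEET16, at -0.41 over the arrays, although the same pair had 0.58 within groups, after each group's mean was removed. These values describe 24 arrays in 8 groups, which share the treatment, the genotypes and the 6 arrays that stand apart.

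Of 994 named probe sets above the floor on at least 12 arrays, those most like SFP1 over the 24 arrays were GSTU27, a glutathione transferase gene (Pearson r 0.91), CLE41, which encodes a peptide signal (0.91), and GT2 (0.87). SWEET17 was followed most closely by UGT74B1 (0.89), a glucosyltransferase of glucosinolate synthesis, and by the beta-glucosidase genes BGLU16 (0.87) and BGLU40 (0.86). SWEET16 was nearest to ZW9 (0.94), SBT4.12 (0.90) and GSO1 (0.88), and SWEET2 to CSLA03 (0.85), GSTU28 (0.79) and IQD19 (0.76). SWEET1 was nearest to EXLB1 (0.86), LEP (0.85) and DELTA-OAT (0.84), and SWEET11 to ECS1 (0.81), SBT1.3 (0.79) and ATPC1 (0.78).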

How the data were processed

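RNA of 24 seedling samples was measured on Affymetrix ATH1 arrays. The authors deposited 1 table of log2 values with a floor at 5.64, used here unchanged. For how the values were summarised and scaled, the method is not given in the sources used here. Gene names came from GEO's platform annotation (13513 probe sets with 1 gene, 503 with several, 8730 unnamed), and the loci of members from RefSeq's TAIR10.1 table, without coordinates because the files name no build. After leaving out 64 control probe sets and 8554 at the floor on every array, 14192 were fitted with limma 3.58.1 (R 4.3.3; lmFit and eBayes with trend) as 8 group means with 16 residual degrees of freedom. The 13 contrasts were adjusted by Benjamini-Hochberg over all probe sets at 0.05, and the tests were two-sided. With 3 arrays a group, the number of arrays limits precision; the median SE of a difference between groups was 0.152. Where all arrays of 1 group were at the floor, a difference is a bound. Nothing says that replicates came from separate cultures, so p-values reflect only how far these samples spread, and that spread may be technical. The fit was tested on simulated data, with changes placed only on probe sets well above the floor and with independent noise. That test does not cover members near the floor, such as SWEET2, or deviations that arrays share.

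All members were named, with 55 other sugar genes by symbol and, for each member, the 3 most similar named probe sets. Members, lists and rules were chosen with earlier results of these data known. The alternatives were quantile normalization, median centring, no filter on low values, the lowest 60% of probe sets left out, the floor raised by 1, the contrast's own groups only, array weights, a replicate block and each array left out, with 2 settings for the 6 arrays that stand apart (loading under -0.2 on the first component of deviations from the group means) and the block within the contrast's groups chosen after seeing the data. Among the groups set against each other, same-numbered arrays deviated together (every r over 0.1) between iaa17-6 IAA and control (0.16, 0.56 and 0.70), between triple mutant IAA and control (0.84, 0.58 and 0.63) and between iaa17-6 and Col controls (0.33, 0.62 and 0.72). Of the comparisons made, only these were treated as paired, and only in the alternative with the block. The main fit had no block, so its p-values take no account of the pairing.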

Additional observations from a re-analysis of the deposited data

How the results depend on the processing

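The 16 called results of the members were recomputed under 257 alternatives, of which 228 kept the call, 29 lost it and 0 reversed it; 10 of the losses came from fitting only the contrast's own groups and 14 from leaving out 1 array. Their values stand beside the results, and the cause was not tested. Among the 16 is the fall of SFP1 in Col, which was known beforehand. Of 62 uncalled results, 15 of 1098 alternatives gave a call. With the floor raised by 1, SWEET2 had no value where all arrays of a contrast lay at the raised floor. It was not in the fit with the lowest 60% left out.

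The number of probe sets called, over all genes, moved more. For the response to IAA it was 1096 in iaa17-6, 341 in axr3-1, 1032 in the triple mutant and 999 in Col. With the lowest 60% left out these became 640, 193, 614 and 614; with the floor raised by 1, 702 in iaa17-6, 653 in the triple mutant and 606 in Col; with only the contrast's groups, 363 in iaa17-6, 84 in axr3-1 and 595 in Col; with array weights, 595 in axr3-1 and 2120 in the triple mutant. Leaving out 1 array gave 855 to 1004 in iaa17-6, 208 to 331 in axr3-1, 759 to 945 in the triple mutant and 757 to 855 in Col.

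For axr3-1 against Col with IAA, 1095 became 652 with the lowest 60% left out, 660 with the raised floor, 656 with only its groups, and 755 to 977 with 1 array left out. Without IAA, 1285 became 482 with only its groups, 2080 with array weights, and 933 to 1292. For the difference of responses, 230 became 93 with the lowest 60% left out, 368 with array weights, and 161 to 208.

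For iaa17-6 against Col with IAA, 15 became 1 with the lowest 60% left out, 8 with the raised floor, 2 with only its groups, and 11 to 85 with 1 array left out. Without IAA, 28 became 8, 2 with only its groups, 46 with array weights, 11 without the 6 arrays that stand apart, 101 with them as a term, and 8 to 71. For the difference of responses, 4 became 0 with the lowest 60% left out (305 at an unadjusted p under 0.05 in the main analysis), 1 with only its groups, and 3 to 9.

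For the triple mutant against Col with IAA, 21 became 7 with the lowest 60% left out, 11 with only its groups, 1289 with array weights, and 6 to 25. Without IAA, 25 became 13 with no filter, 0 with only its groups (1083 at an unadjusted p under 0.05 in the main analysis), 70 with array weights, 11 without the 6 arrays, and 2 to 81. For the difference of responses, 5 became 2 with the lowest 60% left out, 9 with the raised floor, 10 with only its groups, 10 with array weights, and 4 to 8.

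With the replicate number as a block in the paired groups, iaa17-6 against Col without IAA gave 43 calls. Over all arrays the replicate block gave 53 for the triple mutant against Col without IAA and 32 with IAA. The block changed the call of 1 member in the paired groups, SWEET16 in iaa17-6, and of SWEET2 in the difference of responses over all arrays.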
